A study of Drosophila melanogaster with 23 samples.

Results

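The proteasome subunit genes were taken from the count table by symbol. The rule kept every gene whose symbol began with Prosalpha or Prosbeta, or with Pros, Rpn or Rpt followed by a digit, and it found 47 of 17521 genes. Of these, 32 were main subunits: 7 of the alpha ring, 7 of the beta ring, 6 ATPases of the base, 4 other subunits of the base and 8 of the lid. The other 15 carried a T or R suffix, which marks extra copies of a subunit gene. Sem1, a small lid subunit with a symbol of another kind, was not a member and is given below with the pathway.

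The proteasome is the protease of the cytosol and nucleus that takes apart proteins tagged with ubiquitin. Its core particle is a barrel of stacked rings, with beta subunits in the inner rings, where Prosbeta1, Prosbeta2 and Prosbeta5 cut peptide bonds, and alpha subunits in the outer rings, which gate the entry. Its regulatory particle has a base, in which a ring of Rpt ATPases unfolds the substrate, and a lid that holds Rpn11, the enzyme that removes ubiquitin chains. Rpn10 and Rpn13 of the base are ubiquitin receptors. Subunits are built into the particle in fixed proportions, and in flies the transcription factor Cnc, the relative of the mammalian Nrf factors, raises the transcription of their genes when the proteasome is impaired.

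RNA was sequenced from dissected brains of the wild-type strain Canton-S, with no transgene or treatment, in females and males aged 5, 20, 30 and 40 days, which were kept apart by sex. Each library came from a pool of 18 brains. There were 3 replicates, lettered A to C, for every age and sex but the males of 30 days, for which B and C were used, giving 23 libraries. The authors left out the other sample of that group, in which they found contamination by females. Libraries are named here by sex, age and replicate, so that F30A is replicate A of 30-day-old females. Each value is the level of a pool and says nothing of the spread between single flies.

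Total counts per library ran from 6770442 to 28687450, and 3 counts, the limit that a count of 0 allows, were 0.105 to 0.443 CPM, a count scaled to a common library total. This limit covers counting error only. Depth differed by age. Libraries of 5 days had 23506695 to 28687450 counts in females and 21133499 to 24131384 in males. Those of 20 days had 12316789 to 16036581 and 11498366 to 15543760, and those of 40 days 6770442 to 16124005 and 14032497 to 15628443. At 30 days females had 12541109 to 25126334 and males 22379344 to 25981392. The part of depth in the comparisons was not tested. Levels below are CPM scaled by TMM, edgeR's correction of library totals for composition. The 5 neuronal markers elav, nSyb, Syt1, brp and fne had counts in all 23 libraries, with nSyb between 547 and 1429 CPM. Libraries also carried other tissues in unequal amounts: the midgut gene mex1 was above 10 CPM in 5 libraries (M40C, F40A, F30A, F30B and F5B), and the summed CPM of 8 midgut markers ran from 0.765 to 22284. These are bulk brains, in which fewer cells of a type and less RNA per cell cannot be told apart.

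The main subunits were expressed at similar levels. Per kilobase of exon, the 31 main subunits with counts had mean levels over the 23 libraries from 32.7 CPM per kb for Prosbeta4 to 89.2 CPM per kb for the catalytic subunit Prosbeta5, a 2.73-fold range. Means over the subunits of a role, with the SD over 23 libraries, were 54.3 ± 11.2 CPM per kb for the alpha ring, 50.7 ± 9.73 for the beta ring, 53.3 ± 8.08 for the base ATPases, 44.0 ± 6.11 for the other base subunits and 46.1 ± 6.86 for the lid. The roles therefore overlapped in their library ranges, with the alpha ring between 39.8 and 85.3 CPM per kb and the lid between 36.2 and 59.6. Not corrected for length, the mean CPM ran from 26.7 for Prosbeta4 to 117 for Rpn1, the large scaffold of the base.

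**Figure D1:**
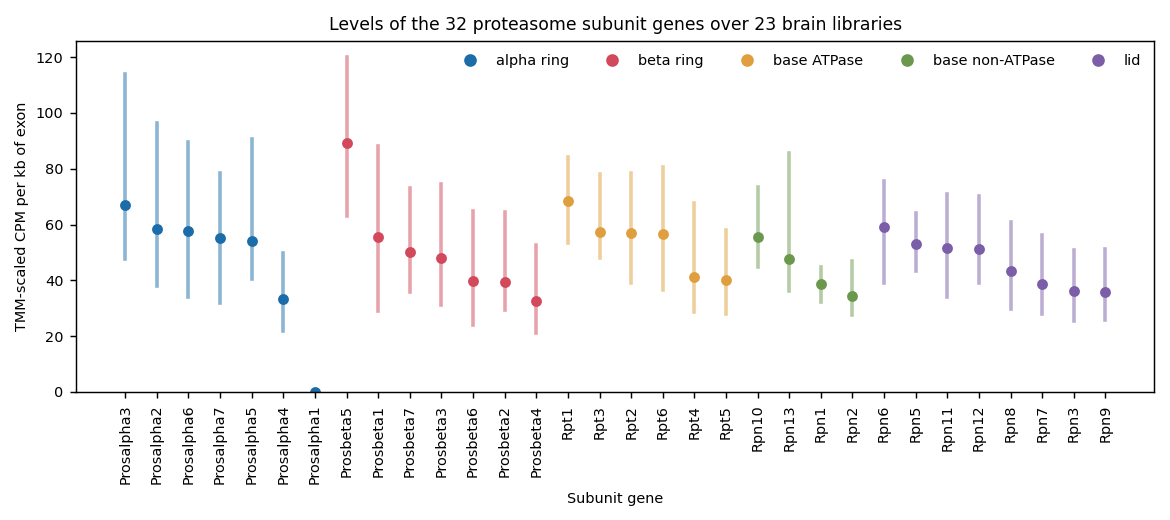
Mean level (dot) and range over the 23 libraries (bar) of the 32 main subunit genes, in TMM-scaled CPM per kb of exon on a linear axis, ordered by role. Prosbeta5 has the highest mean at 89.2 CPM per kb and Prosalpha1 lies at 0 in every library.

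Prosalpha1, an alpha ring subunit on chromosome 2R between 7827303 and 7828678 on Release 6 (dm6), was the exception, with no count in any of the 23 libraries. Its neighbour CG30382, which the annotation names as a second copy of Prosalpha1, also had no count in any library. Counting kept only reads that map to a single gene, so the level of this pair of near-identical genes is uncertain, and it is given here as listed at 0 and not as absent. The cause was not tested.

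Of the 15 copies, 12 stayed at or under 1 CPM in every library and 8 had 10 counts or fewer over all 23 libraries. Prosalpha4T1 had no count at all. Rpn13R was the highest, with a mean of 1.03 CPM, a range from 0 in M20A and M20C to 3.93 CPM in M40B, and 403 counts in all. Rpt3R had a mean of 0.400 CPM and Rpn12R a mean of 0.276 CPM. Many of these copies are known in flies for expression in the testis, and the testis markers were also near 0 here, with a summed level of 0.320 to 5.02 CPM over 9 genes. After the filter on low counts, 32 members were tested in females, the 31 main subunits and Rpn13R, and 34 were tested in males, where Rpn12R and Rpt3R passed as well. The remaining members were too low to test.

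The subunit genes moved together from library to library, and no other set of genes was counted beside them. When each gene was set to its own mean on the log2 scale, the number of the 31 genes above their mean was 5 or fewer in 8 of the 23 libraries and 26 or more in 7, which leaves 8 in between. The summed CPM of the 31 genes ran from 1669 to 2998, with a median of 2033. The median deviation over the 31 genes was -0.05, 0.02 and -0.34 in F5A, F5B and F5C, and 0.30, -0.07 and -0.01 in F20A, F20B and F20C. It was 0.38, 0.49 and 0.12 in F30A, F30B and F30C, and 0.02, -0.08 and -0.16 in F40A, F40B and F40C. All 3 libraries of 30-day-old females thus lay above all 5-day-old and all 40-day-old ones, while F20A lay among them. In males, the medians were -0.11, -0.31 and 0.09 at 5 days, 0.23, -0.14 and 0.16 at 20 days, -0.24 and -0.11 at 30 days, and 0.14, -0.17 and -0.19 at 40 days, in the order of the replicate letters. Every pair of male ages overlapped.

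**Figure D2:**
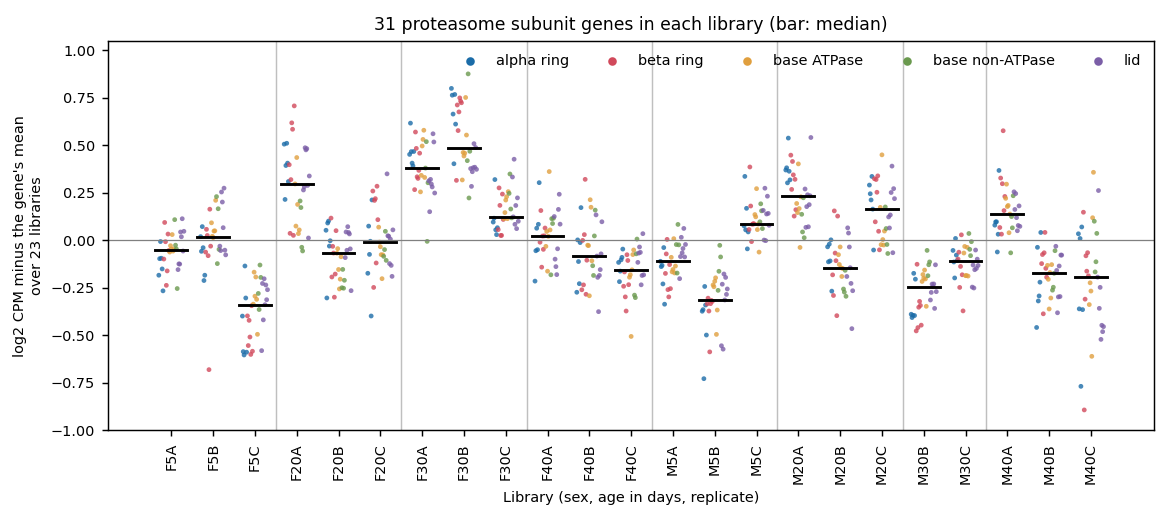
Deviation of each of 31 subunit genes (points, coloured by role) from its own mean over 23 libraries, in log2 CPM, for each library, with the median as a black bar and grey lines between groups. The medians of F30A, F30B and F30C are 0.38, 0.49 and 0.12, and F5C has the lowest at -0.34.

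To ask whether the subunit genes changed with age, each sex was fitted alone with edgeR's quasi-likelihood test, with p-values adjusted by Benjamini and Hochberg's method over all genes. A gene is said to have risen or fallen when it passed a 5% false discovery rate (FDR) both over the 4 ages and in the comparison itself. Over the 4 ages, 1 of the 32 members tested in females passed, Rpn13 (adjusted p = 0.0369), where 14.5% of all genes tested passed. Rpn2, the base scaffold that carries Rpn13, and the lid subunit Rpn3 came next with adjusted p = 0.0513 and 0.0537. In males 0 of 34 members passed, where 0.287% of all genes passed, and the smallest adjusted p among them was 0.233, for Prosbeta7.

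Among the 8 comparisons of ages within a sex, the median difference of the subunit genes was largest between 5-day-old and 30-day-old females. All 31 main subunits were higher at 30 days, by a median of 0.44 on the log2 scale, when the median of all genes tested was -0.00. The range was wide, from 0.08 for Rpn1 to 0.81 for Prosbeta6. Rpn13 alone passed both tests, and 1.86% of all genes tested rose and 4.82% fell in this comparison. At an unadjusted p under 0.05, 24 of the 31 were higher and 0 lower, where 11.3% of all genes were higher. In 28 of the 31, every 30-day-old library was above every 5-day-old library, where 15.3% of all genes showed this. The exceptions were Rpn1, Rpn7 and Rpn12.

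Rpn13 lies on chromosome 2R between 13958545 and 13960404 on the minus strand. Its levels were 76.6, 71.6 and 60.6 CPM in F5A, F5B and F5C, 87.9, 70.1 and 75.4 in F20A, F20B and F20C, 112, 143 and 99.3 in F30A, F30B and F30C, and 84.4, 68.6 and 63.3 in F40A, F40B and F40C. The 30-day-old libraries were the 3 highest of the 12 and did not overlap those of any other age. From 5 to 30 days Rpn13 rose, with a log2 difference of 0.71 ± 0.17 (SE) at adjusted p = 0.0288. It then fell by 0.65 (SE 0.17, adjusted p = 0.0396) from 30 to 40 days, and the level at 40 days differed from that at 5 days by 0.06 (SE 0.17, adjusted p = 0.853).

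The call of Rpn13 depended on single libraries. With each of the 12 female libraries left out in turn, its difference at 30 against 5 days stayed between 0.57 and 0.84, but it passed both tests in 5 of the 12. It lost the call without F5B (adjusted p of the comparison = 0.0569), F5C (0.0854), F20C (0.0461), F30A (0.0756), F30B (0.115), F40B (0.0428) and F40C (0.0395); in the third, sixth and seventh of these it was the test over the 4 ages that failed. Conversely, 7 members passed without F30C. Over all genes, 43 to 842 passed with a library left out, against 701 with all 12.

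The 3 catalytic subunits were also higher at 30 days but none of them passed. Prosbeta1, with caspase-like activity, had 49.0, 47.8 and 31.3 CPM at 5 days against 68.2, 75.2 and 55.6 at 30 days, with no overlap, a difference of 0.58 (SE 0.18, adjusted p = 0.0769). Prosbeta2, with trypsin-like activity, had 41.0, 44.9 and 31.6 CPM against 51.8, 66.6 and 47.5, a difference of 0.44 (SE 0.18, adjusted p = 0.157). Prosbeta5, with chymotrypsin-like activity, had 93.5, 95.9 and 76.0 CPM against 120, 125 and 104, a difference of 0.34 (SE 0.13, adjusted p = 0.122). In each of the 3 genes F5C was the lowest of the 5-day-old libraries and F30B the highest of the 30-day-old ones.

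Another 3 members passed the comparison at 5% FDR without passing the test over the 4 ages. Rpn2 had 97.3, 112 and 101 CPM at 5 days against 143, 160 and 126 at 30 days, a difference of 0.41 (SE 0.11, adjusted p = 0.0416). Rpn3 had 62.8, 62.96 and 52.6 CPM against 93.4, 91.5 and 76.2, a difference of 0.50 (SE 0.13, adjusted p = 0.0370). Prosalpha4 of the alpha ring had 31.9, 33.8 and 25.5 CPM against 53.0, 58.6 and 40.2, a difference of 0.68 (SE 0.17, adjusted p = 0.0346). In all 3 genes the 30-day-old libraries lay above the 5-day-old ones, with F30C the lowest of its group.

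By role, the median differences at 30 against 5 days in females were 0.60 in the alpha ring (6 genes with counts), 0.58 in the beta ring (7), 0.40 in the base ATPases (6), 0.34 in the other base subunits (4) and 0.32 in the lid (8). All 13 core particle genes had an unadjusted p under 0.05, against 11 of the 18 of the regulatory particle. The difference between the roles moved with transcript length. Exons of the core particle genes summed to 815 to 1215 bases and those of the regulatory particle to 995 to 3412, and across the 31 genes Spearman's rho between exon length and log2 fold change was -0.44, a description over genes that share the same libraries. With a trend of fold change on exon length over all genes removed, all 31 stayed higher and the median was 0.41.

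**Figure D3:**
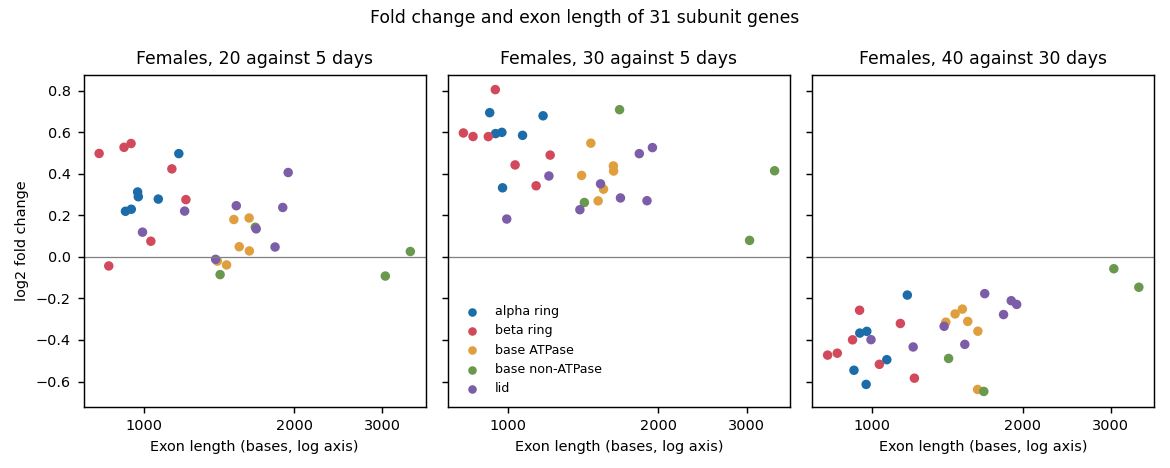
Log2 fold change of 31 subunit genes (points, coloured by role) against exon length in bases on a log axis, in females at 20 against 5, 30 against 5 and 40 against 30 days. Short core particle genes have the larger differences, with Spearman's rho of -0.43, -0.44 and 0.48 in the 3 panels.

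Markers of the cells in the brain moved with this comparison. The 5 neuronal markers were all lower at 30 than at 5 days in females, by a median of 0.79 on the log2 scale, and 2 of them fell. Their summed level was 3253 to 5160 CPM at 5 days and 1937 to 2546 CPM at 30 days, without overlap. Among 5 glial markers, 4 were lower and 1 fell. The 8 midgut markers summed to 3.96 to 17892 CPM at 5 days and to 1386 to 22284 CPM at 30 days, with mex1 at 0 in 5 of the 23 libraries, and 7 fat body markers to 25493 to 67830 and 13735 to 122027 CPM, with 0 midgut and 0 fat body markers past both tests. Of 7 hemocyte markers, NimC1 rose by 1.32 and PPO2 fell by 1.79 on the log2 scale, and their sum was 617 to 843 CPM at 5 days and 310.4 to 860.4 at 30 days. F30C, with the least mex1 of the 3 and the deepest library of its age, had the smallest proteasome deviation of them. It also had the highest neuronal marker sum, 2546 CPM against 1937 in F30A and 2181 in F30B. In the 5 libraries with mex1 above 10 CPM, the deviation was 0.38 in F30A, 0.49 in F30B, 0.02 in F5B, 0.02 in F40A and -0.19 in M40C. Without the 5 libraries with mex1 above 10 CPM, which leaves F30C as the lone 30-day-old female library with its spread taken from the other groups, all 31 main subunits were still higher, by a median of 0.39, and 0 members and 2 of 11203 genes passed. The part of neurons, glia, gut, fat body or hemocytes in the result was not tested further.

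From 30 to 40 days in females the direction turned. All 31 main subunits were lower at 40 days, by a median of 0.36 on the log2 scale, against a median of -0.04 for all genes tested. With library totals or without the libraries with mex1 above 10 CPM, 1 of the 31 was higher, with medians of -0.28 and -0.26. Rpn13 was the 1 member that fell, where 2.88% of all genes fell and 3.72% rose. At an unadjusted p under 0.05, 17 were lower, where 13% of all genes were lower, and 22 had every 40-day-old library under every 30-day-old one, where 20.6% of all genes had. Rpt2, a base ATPase, and Prosbeta7, a structural beta subunit, passed the comparison but not the test over the 4 ages, with differences of -0.64 (SE 0.16, adjusted p = 0.0370) and -0.58 (SE 0.15, adjusted p = 0.0405). Prosbeta7 had 83.3, 88.9 and 67.7 CPM in F30A, F30B and F30C and 54.0, 50.6 and 48.5 CPM in F40A, F40B and F40C, without overlap.

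The catalytic subunits at 40 days overlapped their levels at 5 days. Prosbeta1 had 51.2, 45.9 and 40.9 CPM at 40 days, Prosbeta2 40.8, 32.9 and 37.3 CPM, and Prosbeta5 99.4, 83.6 and 84.7 CPM. The 5 neuronal markers were all higher at 40 than at 30 days, by a median of 0.99 on the log2 scale, and 3 of them rose, while the 8 midgut markers were all lower with 0 that fell. Of 6 fat body markers tested, 5 were lower, by a median of 1.71 over the 6, with 0 that fell, and the sum of the list was 8925 to 17768 CPM at 40 days against 13735 to 122027 at 30 days. Of the 7 hemocyte markers 6 were lower and PPO2 fell. The part of these in the result was not tested. Removing the length trend changed the median at 40 against 30 days more than that at 30 against 5 days. Spearman's rho with exon length was 0.48 and -0.44 in these comparisons, and the part of length was not tested. With the length trend removed the median was -0.13, with 3 of the 31 genes higher, and 0 members passed. Without F20C, F30A, F30B, F40B or F40C the call of Rpn13 was lost, with adjusted p = 0.0557, 0.0948, 0.120, 0.127 and 0.138, and without F5B it was lost in the test over the ages (0.0581). Without F5C or F20A, 4 and 2 members fell, and 2 fell without F30C. Over all genes 694 passed with all libraries, and 0 passed without F30A, F30B, F40B or F40C.

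At 20 against 5 days in females, 25 of the 31 main subunits were higher, with a median of 0.19, and 0 passed both tests, where 1.14% of all genes rose and 1.83% fell. At an unadjusted p under 0.05, 6 were higher, where 8.7% of all genes were. DESeq2 called 1 member and 913 of 14471 genes. That member was Prosbeta5, with the smallest p, at 132, 109 and 120 CPM in F20A, F20B and F20C against 93.5, 95.9 and 76.0 CPM at 5 days. Its groups did not overlap, and the difference was 0.42 (SE 0.13, adjusted p = 0.102). The median differences were 0.28 in the alpha ring and 0.42 in the beta ring, against 0.04 in the base ATPases, -0.03 in the other base subunits and 0.18 in the lid. Across the 31 genes Spearman's rho with exon length was -0.43.

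At 40 against 5 days in females the group was near its level at 5 days, with a median of 0.06. This median was 0.05 to 0.22 under the other settings listed below and -0.05 to 0.12 with a library left out. Of the 31 main subunits 21 were higher and 10 lower. None passed both tests, where 2.47% of all genes rose and 4.87% fell. At an unadjusted p under 0.05 there were 2, where 11% of all genes were higher and 15.2% lower. DESeq2 called 1 member and 1496 of 14471 genes. That member was Prosalpha4, on the X chromosome, with 47.3, 43.2 and 37.1 CPM in F40A, F40B and F40C against 31.9, 33.8 and 25.5 CPM at 5 days. Its libraries did not overlap, and the difference was 0.50 (SE 0.17, adjusted p = 0.0872). Prosalpha4 was thus higher than at 5 days at each later age, by 0.50, 0.68 and 0.50 at 20, 30 and 40 days, without passing both tests at any of them.

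**Figure D4:**
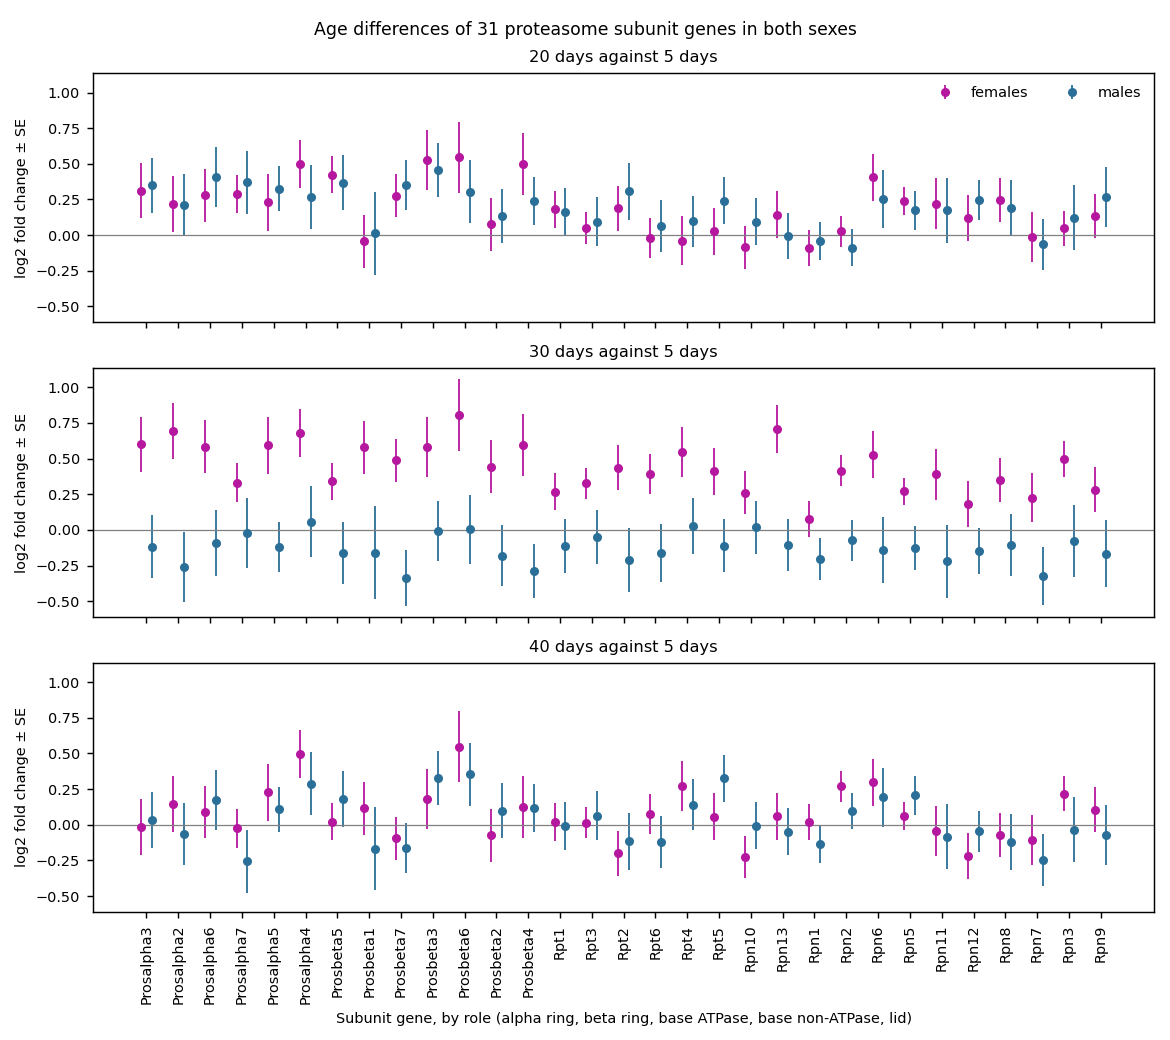
Log2 fold change against 5 days (± SE from edgeR) of 31 subunit genes, ordered by role, at 20, 30 and 40 days, in females and males. At 30 days all 31 female values are above 0 and 27 of the 31 male values are below it.

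In males 0 members passed both tests in any of the 4 comparisons, with edgeR or with DESeq2, which called 66 to 808 of 14614 genes in them. At 20 against 5 days 27 of the 31 main subunits were higher, by a median of 0.21, with 1 at an unadjusted p under 0.05, where 6.37% of all genes were higher and 7.28% lower at that p, while 0.0278% rose and 0.00926% fell. That gene was Prosbeta3, a structural beta subunit, with 35.7, 28.4 and 42.5 CPM in M5A, M5B and M5C and 54.2, 40.8 and 50.9 CPM in M20A, M20B and M20C. The groups overlapped, and the difference was 0.46 (SE 0.19, adjusted p = 0.336). The median of the 31 genes was 0.04 to 0.23 under the other settings and 0.09 to 0.32 with a library left out. As in females, the median was larger in the alpha ring (0.34) and the beta ring (0.31) than in the base ATPases (0.13), the other base subunits (-0.02) and the lid (0.18), and Spearman's rho with exon length was -0.44. The difference between the roles itself was not tested.

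At 30 against 5 days in males, 27 of the 31 were lower, by a median of 0.12 on the log2 scale, but 17 were higher with library totals in place of TMM (median 0.01). With TMM there were 0 at an unadjusted p under 0.05, where 3.74% of all genes were lower and 2.52% higher at that p and 0.0463% rose. Prosbeta7 had the smallest p, with 59.8, 46.0 and 67.5 CPM at 5 days against 43.3 and 50.2 CPM in M30B and M30C. These groups overlapped, and the difference was -0.33 (SE 0.20, adjusted p = 0.875). At 40 against 5 days 15 were higher and 16 lower, with a median of -0.01, against 20 higher and a median of 0.04 with library totals. With TMM there were 0 at an unadjusted p under 0.05, where 9.55% of all genes were higher and 10.7% lower. At 40 against 30 days 27 were higher, by a median of 0.14, and 1 had an unadjusted p under 0.05, where 5.16% of all genes were higher and 3.31% lower.

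That last gene was Rpt5, a base ATPase, which also had the smallest p at 40 against 5 days. It had 58.4, 49.8 and 61.5 CPM at 5 days, 75.2, 57.9 and 66.4 at 20 days, 50.4 and 56.3 at 30 days, and 70.6, 58.7 and 82.2 at 40 days. The 40-day-old libraries lay above the 30-day-old ones, but M40B lay within the range at 5 days. The differences were 0.44 (SE 0.19, adjusted p = 0.575) against 30 days and 0.33 (SE 0.16, adjusted p = 0.303) against 5 days. The 3 members with the smallest p over the 4 ages in males were Prosbeta7, Prosbeta3 and Prosalpha7, and the last had its highest level at 20 days, 64.1 ± 14.02 CPM (SD, n = 3), against 49.7 ± 8.38 at 5 days and 41.6 ± 9.89 at 40 days, with adjusted p = 0.366 over the ages.

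**Figure D5:**
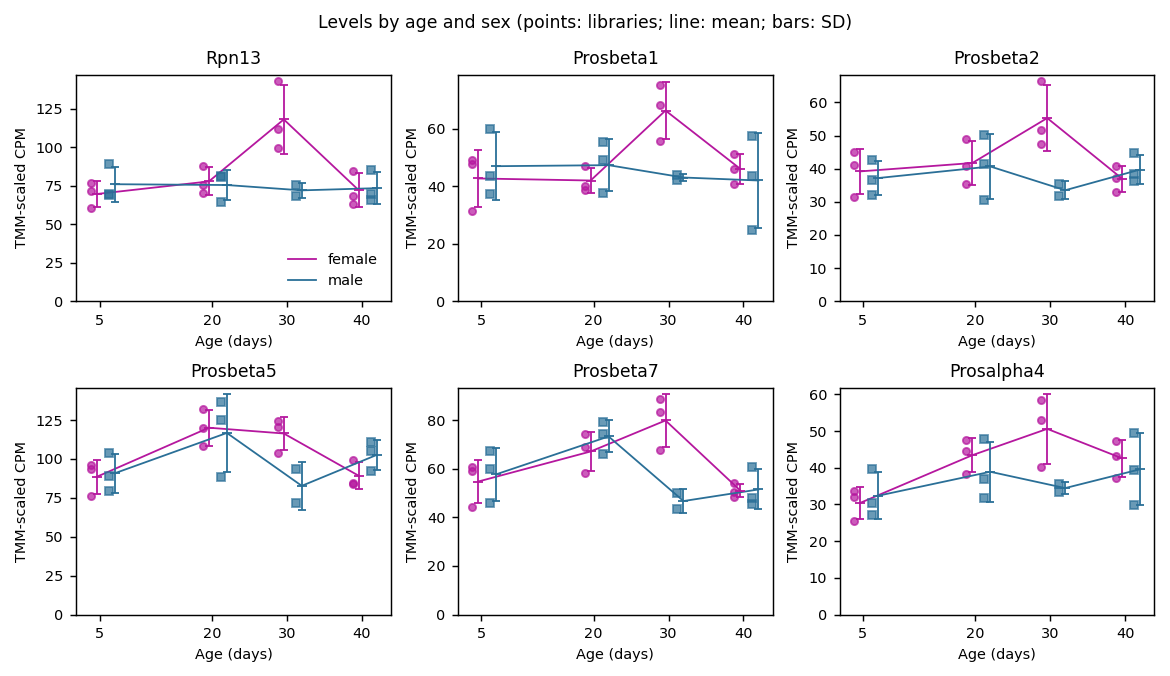
TMM-scaled CPM of 6 subunit genes by age in females and males, with libraries as points, the group mean as a line and the SD as bars on axes that start at 0. Rpn13 reaches 112, 143 and 99.3 CPM in the 3 libraries of 30-day-old females and lies between 64.5 and 89.1 CPM in all male libraries.

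To ask whether the sexes aged differently, the difference between the female and the male age effect was tested in 1 fit of all 8 groups. At 30 against 5 days it was positive in all 31 main subunits, with a median of 0.60 on the log2 scale, when the median of all genes was 0.03. Of the 31, 18 had an unadjusted p under 0.05, where 4.9% of all genes were positive and 3.86% negative at that p. No gene passed a 5% FDR here, member or not (0% of 11332), and the members' smallest adjusted p was 0.558. DESeq2 called 0 members and 8 of 15221 genes. The smallest p were those of Prosbeta7, with a difference of 0.85 (SE 0.25), and Rpn13, with 0.84 (SE 0.25), both at adjusted p = 0.558.

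The TMM-scaled levels of the sexes at 30 days alone were set side by side without a test. In 30 of the 31 genes both 30-day-old male libraries were below all 3 female ones, where 24.5% of all genes had this. Compared with library totals, TMM raised the levels of all 3 female libraries and lowered those of both male ones. Its factors, which multiply the totals, ran from 0.897 in F30C to 1.097 in M30C. The count of genes was not repeated with library totals, so it holds for TMM-scaled levels only. Rpn13 had 68.5 and 75.4 CPM in M30B and M30C against 99.3 to 143 CPM in the females, and Prosbeta7 had 43.3 and 50.2 CPM against 67.7 to 88.9. The male group had 2 libraries, and the median of the difference in age effects was between 0.45 and 0.70 with any 1 of the 23 libraries left out and 0.44 without the libraries with mex1 above 10 CPM. The same difference was negative in all 5 neuronal markers, with a median of -0.78 and 0 past the threshold, and its part was not tested. At 20 and 40 days the medians of the subunits were -0.03 and 0.06, the first of which was 0.07 without the libraries with mex1 above 10 CPM. There, 0 main subunits had an unadjusted p under 0.05, where 1.36% and 1.85% of all genes were positive and 2.66% and 4.43% negative at that p, and 0 members passed with edgeR or DESeq2.

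The copies Rpt3R and Rpn13R gave the smallest p among the members at 20 days, on few reads. The low-count filter kept Rpt3R with male libraries included but not in females alone, so its p is no support for a difference. Rpt3R was at 0 in F20A, F20B and F20C and at 0.968, 0.0632 and 1.08 CPM in M20A, M20B and M20C, where 3 counts were 0.187 to 0.261 CPM in these 6 libraries. Rpn13R, second at 20 days, was at 0.835, 1.55 and 1.18 CPM in the females and at 0, 0.695 and 0 CPM in the males, and neither passed (adjusted p = 0.99999 for both). At 40 days the base ATPase Rpt5 had the smallest p and Rpt3R the next, with adjusted p = 0.922 and 0.935.

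Averaged over the 4 ages, all 31 main subunits were higher in females than in males, by a median of 0.12 on the log2 scale (25 of 31 with library totals, median 0.05), with 4 at an unadjusted p under 0.05, where 12.1% of all genes were. None passed a 5% FDR, where 3.67% of all genes were higher and 2.18% lower. Prosbeta4, the main subunit with the smallest p, differed by 0.25 (SE 0.10, adjusted p = 0.162), with a range of 17.3 to 42.9 CPM in females and 19.1 to 30.5 CPM in males, so that the sexes overlapped. Rpt3R, a copy of the base ATPase gene Rpt3, differed by -2.03 ± 0.66 (log2, SE) in females against males at adjusted p = 0.0835. It was at 0 in 4 of the 12 female libraries, and it passed with DESeq2 and, with edgeR, without M20B. The low-count filter did not keep Rpt3R in the fit of females alone, only where male libraries were included. Its p-values between the sexes are therefore given as values and not as support for a difference. Without the libraries with mex1 above 10 CPM 23 of the 31 main subunits were higher, with a median of 0.01. By age, the sexes were apart in TMM-scaled levels at 30 days alone, which was not repeated with library totals. The group mean of the median deviation over the 31 genes was 0.33 in females and -0.18 in males at 30 days. It was -0.12 and -0.11 at 5 days, 0.07 and 0.08 at 20 days, and -0.07 in both sexes at 40 days. Markers of other cells differed between the sexes too. All 5 neuronal and all 5 glial markers were lower in females, by medians of 0.27 and 0.21 on the log2 scale with 0 past the threshold. The fat body markers Yp1, Yp2 and Yp3, which are yolk protein genes, and the hemocyte markers NimC1 and eater passed as higher in females, and the 8 midgut markers were all higher with 0 past it. Other markers of these lists were mixed. The fat body marker Lsp2 had 208, 211 and 98.1 CPM in 5-day-old females against 1847, 130 and 2667 in males. At 40 days it had 281, 147 and 70.9 CPM against 56.4, 41.8 and 2.40. The hemocyte marker PPO1 had 105, 77.3 and 72.2 CPM in 5-day-old females against 52.6, 41.8 and 173 in males. The part of these in the result was not tested.

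The genes around the proteasome were taken from lists chosen by function. Their calls come from the edgeR fits above and were not examined under other settings or with a library left out. Over all genes, 312 passed at 20 against 5 days in females, and 19 to 292 with a library left out. Sem1, the small lid subunit, rose in females at 20 and 30 days. It had 29.2, 29.02 and 24.9 CPM at 5 days, 59.5, 49.1 and 42.1 at 20 days, 39.1, 42.6 and 37.6 at 30 days, and 30.4, 28.9 and 28.6 at 40 days. The rise was 0.84 (SE 0.13, adjusted p = 0.0201) at 20 days and 0.47 (SE 0.13, adjusted p = 0.0488) at 30 days. In males its 20-day-old libraries, at 46.1, 48.3 and 43.4 CPM, also lay above 28.6, 20.5 and 33.6 CPM at 5 days, without passing both tests.

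Cnc and its partners were measured as RNA only. The gene cnc rose in females at all 3 later ages, from 294, 275 and 288 CPM at 5 days to 400, 402 and 442 at 20 days, 408, 449 and 440 at 30 days, and 428, 487 and 427 at 40 days. The rises were 0.53, 0.55 and 0.66, each with SE 0.11, with adjusted p = 0.0368, 0.0187 and 0.00576. From 30 to 40 days cnc differed by 0.11 (SE 0.11, adjusted p = 0.605), and the libraries of these ages overlapped. Its dimer partner maf-S fell by 0.59 (SE 0.11, adjusted p = 0.00941) from 5 to 40 days, to 48.3, 48.7 and 48.7 CPM from 79.7, 78.3 and 63.3, and by 0.62 (SE 0.11, adjusted p = 0.0191) from 30 to 40 days. Keap1, the inhibitor of Cnc, had 14.3, 10.3 and 11.6 CPM at 5 days and 20.7, 17.7 and 22.2 CPM at 40 days, and passed the comparison (0.75, SE 0.20, adjusted p = 0.0375) but not the test over the ages. In males none of the 3 passed both tests in any comparison, where 0.287% of all genes passed over the ages. The 40-day-old male libraries, at 480, 412 and 493 CPM of cnc, also lay above 321, 301 and 363 CPM at 5 days. Of all genes tested in males, 13.3% were higher without overlap in this way. At 20 days cnc had 397, 402 and 343 CPM in males, which overlapped the level at 5 days.

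Of 12 genes for ubiquitin, its activation and the delivery of substrates, 2 rose in females at 30 days, the delivery factor rngo (the fly Ddi1) by 0.68 (SE 0.13, adjusted p = 0.0146) and TER94, the segregase that extracts ubiquitinated proteins, by 0.66 (SE 0.13, adjusted p = 0.0171). TER94 had 274, 308 and 255 CPM at 5 days and 456, 524 and 392 CPM at 30 days, and rngo 40.0, 44.8 and 38.1 against 68.8, 70.6 and 64.9, both without overlap. The median of the list was 0.27, and 1.86% of all genes tested rose in this comparison. At 20 days rngo and RpL40, the fusion of ubiquitin to a ribosomal protein, rose by 0.56 and 0.62 (SE 0.13 and 0.15, adjusted p = 0.0451 and 0.0498), where 1.14% of all genes rose. From 30 to 40 days RpL40 fell by 0.78 (SE 0.15, adjusted p = 0.0204), where 2.88% of all genes fell. Averaged over ages, RpS27A, another ubiquitin fusion, and the shuttle factor Ubqn were above their male levels in females, by 0.49 and 0.18 (SE 0.08 and 0.05, adjusted p = 0.00223 and 0.0464), where 3.67% of all genes were higher. Of 9 assembly factors and regulators, among them the assembly chaperone Pomp and the activator REG, 0 passed both tests in any comparison. At 30 against 5 days in females their median was 0.20. There, 4 had an unadjusted p under 0.05, where 11.3% of all genes were higher and 15.1% lower.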

How the data were processed

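The values deposited by the authors are raw counts of reads per gene. Reads were paired-end; Trimmomatic 0.35 removed adapters and poor bases, STAR placed the reads on dm6, and HTSeq counted those that fell in a single gene. No normalization was applied. Whether counting used strand is not given in the sources used here; exons of 13 main subunit genes overlap another gene, by over 10% of their length in 2 (Rpn9 and Rpt6), and such levels are uncertain. Symbols were matched to a Release 6 annotation for positions and exon lengths.

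Tests used edgeR 4.0.16 under R 4.3.3 with its own low-count filter (filterByExpr), TMM scaling and a robust quasi-likelihood fit, each sex alone over its 4 ages and both sexes in a fit of 8 groups, with two-sided tests and Benjamini-Hochberg adjustment over the 10505, 10799 or 11332 genes kept. SE is the fold change divided by the square root of its F. Tests were tried on simulated data. Members, lists and markers were chosen with earlier results of these data known.

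Members named are the catalytic subunits, the 3 with the smallest p over ages in each sex, up to 3 per direction passing both tests in each comparison (the smallest p where none did), the 2 smallest p in each test between sexes, and the lowest and highest levels. Other members and pathway genes were picked with their values known.

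The alternatives tried were DESeq2 1.42.0, relative log expression factors, library totals, other count filters (all genes with a count, at least 1 CPM in 3 libraries), a block for the letters A to C, both sexes in 1 fit, a fit to only the pair of ages, the comparison alone, a length trend removed, 5 libraries with mex1 above 10 CPM left out, and each library left out. No 2 libraries of a group agreed within sampling noise. Promoter sequences were not analysed here.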

Additional observations from a re-analysis of the deposited data

How the results depend on the processing

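In females, 1 member passed over the 4 ages, with 1528 of 10505 genes. The count was 3 with relative log expression factors or at least 1 CPM in 3 libraries, 0 with library totals or without the mex1 libraries, 6 with the replicate block, 5 with the length trend removed, 4 with both sexes in 1 fit and 11 with DESeq2, and 0 to 7 with a library left out. The counts over all genes moved as well, to 3270 of 14470 with DESeq2, 9 of 11203 without the mex1 libraries and 413 to 2058 with a library left out. At 30 against 5 days it was 1 (701 genes), and 3 with relative log expression factors or the 1 CPM filter, 0 with library totals, only the 2 ages (0 genes) or without the mex1 libraries (2 genes), 5 with the block or the length trend removed, 4 with the comparison alone or both sexes in 1 fit, 9 with DESeq2 (1521 genes), and 0 to 7 with a library left out. At 40 against 30 days it was 1 (694 genes), and 0 with library totals, the length trend removed or without the mex1 libraries, 2 with the block or both sexes in 1 fit, 3 with the comparison alone, 4 with DESeq2 (1486 genes) or only the 2 ages (1217 genes), and 0 to 4 with a library left out (0 to 1378 genes). It was 1 instead of 0 with DESeq2 at 20 against 5 days, with DESeq2 or the length trend removed at 40 against 5 days, and with DESeq2 for the sexes, where leaving out a library gave 0 to 1. The count was 0 under all settings run in males and for the age effects that differ between the sexes. The medians at 30 against 5 days in females stayed between 0.37 and 0.58. The correlations did not settle whether replicate letters pair the samples. In females, same-letter deviations correlated by a median of 0.12 and different-letter ones by -0.07. Of these pairs, 10 of 18 and 14 of 36 were over 0.1. In males the medians were -0.06 and 0.03, with 2 of 15 and 12 of 30 pairs over 0.1. The block counts above are therefore given only as values. The cause of these changes was not tested. With 2 or 3 pools a group, a p that misses the threshold does not show that levels were equal.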
